A study of Mus musculus with 4 samples.

Results

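Anti-PD-1 treatment of IL-34-overexpressing CT26 tumours was described gene by gene from 1 RNA-seq library of treated tumours and 1 of untreated tumours. CT26 is a colon carcinoma cell line of BALB/c mice. All rows of the authors' table with at least 1 FPKM in either library of the pair were used, which took 11513 of 23745 gene rows. With 1 row for each gene symbol and short RNAs left out, these were 11460 of 22508 genes. FPKM gives fragments per kilobase of transcript, relative to the depth of the library. The treated group held tumours of IL-34 overexpression CT26 cells given an αPD-1 monoclonal antibody, and its control held tumours of the same cells left untreated. Tumours of IL-34 deficient CT26 cells, treated and untreated in the same way, supply values for comparison. The BALB/c background was common to all 4 groups. No label gives the number of animals in a library, the clone or dose of the antibody, the day of collection, the means of overexpression or whether a cell line was 1 clone.

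With 1 library a group there was no spread between replicates and no test. Every ratio below compares 2 libraries, and the words higher and lower describe those libraries. In RNA from whole tumours, fewer cells of a type and less RNA per cell cannot be told apart.

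PD-1 is an inhibitory receptor that activated T cells carry, and antibodies that block it can restore T cell activity in tumours. Interferon-γ from T cells and natural killer cells is known to raise antigen presentation by MHC class I and class II, the guanylate-binding proteins and the chemokines that attract T cells. Type I interferons act through a complex of transcription factors that binds interferon-stimulated response elements in promoters of antiviral genes. IL-34 is a ligand of the CSF-1 receptor, on which macrophages and their precursors depend.

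The libraries of the pair were alike in size. FPKM sums were 518464 in the treated library and 523753 in the untreated one, and the depth of the treated library was 94.4% of that of the untreated library. Il34 stood at 104 FPKM in the treated and 104 FPKM in the untreated overexpressing library, against 3.02 and 3.52 FPKM in the treated and untreated deficient libraries. Of 8 genes of simple epithelium, among them Epcam and Krt8, 0 reached 1 FPKM in either library of the pair, and of 13 epidermal genes, 0 did. Rn45s, the precursor of ribosomal RNA, was listed at 306 FPKM in the treated library and 440.4 FPKM in the untreated library, a value chosen after it was seen, and its part in other values was not tested. Xist was at 4.95 FPKM with treatment and 3.91 FPKM without, and all 4 Y-linked genes on the list were at 0 in both.

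Most genes differed little between treated and untreated overexpressing tumours. The log2 ratio of FPKM + 1, treated over untreated, had a median of -0.0023 and an SD over genes of 0.18, and 91.9% of genes lay within 0.25 of 0. The same treatment in the deficient line gave an SD of 0.35, with 67.4% of genes within 0.25. The untreated libraries of the overexpressing and the deficient line, which differ in the cell line and share no treatment, gave an SD of 0.157 with 93.5% within 0.25; this comparison shares the untreated overexpressing library with the treated pair. A log2 ratio of at least 1 was reached by 6 genes that were higher (0.0524%) and 32 that were lower (0.279%) with anti-PD-1. A size of at least 0.5 was reached by 84 genes that were higher (0.733%) and 109 that were lower (0.951%). The ratio was above 0 for 49.1% of genes and below 0 for 50.9%. The spread was larger for weakly expressed genes: the SD was 0.238 for 2890 genes with a mean under 5 FPKM and 0.156 for 701 genes with a mean of 100 FPKM or more.

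**Figure D1:**
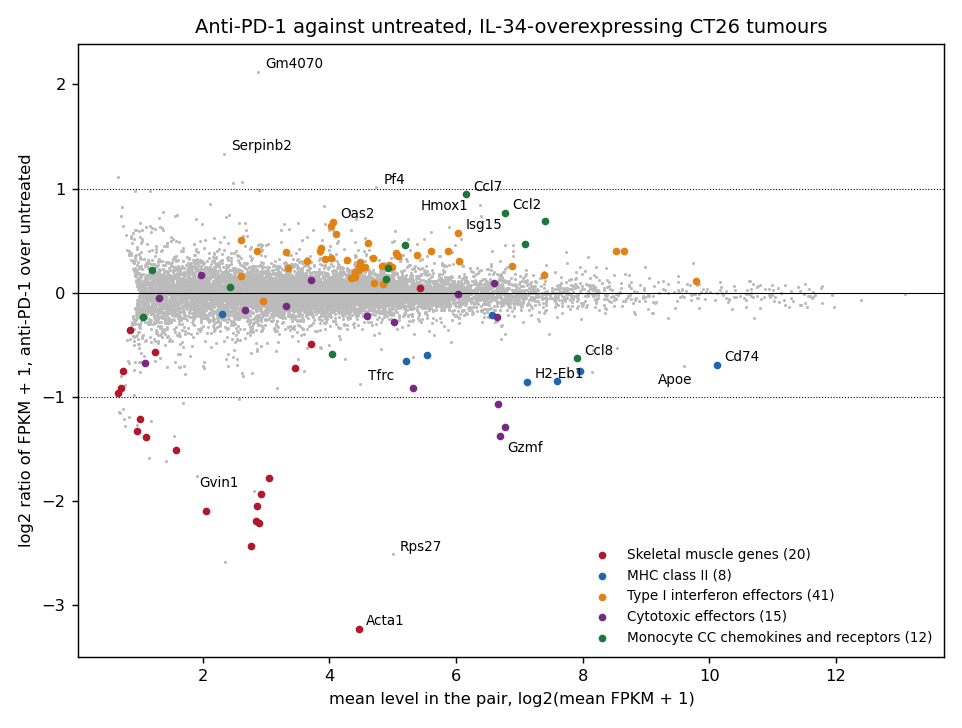
Each point is 1 of 11460 genes, with its mean level in the pair on the horizontal axis, as log2 of mean FPKM + 1, and the log2 ratio of FPKM + 1, anti-PD-1 over untreated, on the vertical axis. Coloured points are members of 5 gene lists and dotted lines mark log2 ratios of 1 and -1. Most of the 20 skeletal muscle genes and all 8 MHC class II genes lie below 0, and 40 of 41 type I interferon effectors lie above 0.

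The genes past a log2 ratio of 1 were few and mostly of low level. Among the 6 that were higher, Hist1h4a passed the minimum through the treated library alone and was listed at 0 in the untreated library. Among the 32 that were lower, 18 passed the minimum through the untreated library alone, so these could only lie below 0. Of the 32, 12 were on the skeletal muscle list, which does not hold every muscle gene. Actn2, Sln and Pdlim3 were not on it, with log2 ratios of -1.27, -1.16 and -1.12, and passed through the untreated library alone.

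Antiviral effectors of type I interferon were higher in treated tumours, each by a small amount. All 41 genes on this list passed the minimum, 40 were above 0, and their median log2 ratio was 0.31, beside -0.0023 over all genes. Of the 41, 5 were higher by at least 0.5 and 0 were lower by that size. Oas2 and Oas3, which make the 2-5A messenger that activates RNase L, were the most different. Oas2 had 19.6 FPKM in treated tumours and 11.8 FPKM in untreated tumours, a log2 ratio of 0.68. Oas3 had 18.8 FPKM in treated tumours and 11.7 FPKM in untreated tumours, a log2 ratio of 0.64. Isg15, a ubiquitin-like modifier, had 77.3 FPKM with treatment and 51.5 FPKM without, a log2 ratio of 0.58. These genes were of moderate level, well above the minimum. Slfn1, a schlafen family gene, had 19.5 FPKM in treated and 12.9 FPKM in untreated tumours, and Mx2, a dynamin-like antiviral GTPase, 6.12 and 4.002 FPKM. Among abundant members, Bst2, the tetherin that holds virions at the cell surface, stood at 456 FPKM with anti-PD-1 and 344 FPKM without. Ifi27l2a stood at 419 FPKM with anti-PD-1 and 316 FPKM without. The members thus leaned 1 way at all levels, and the only member below 0 was Epsti1, at 6.58 FPKM in treated and 7.01 FPKM in untreated tumours. Oas2, Oas3, Oas1a and Oas1g of the chromosome 5 cluster (mm10, 120730333 to 120907525) all lay above 0, at log2 ratios of 0.34 to 0.68. These 4 were chosen, and other genes within these bounds were not counted here.

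Promoters of Isg15, Oas3 and Ifit1 are shown because these effectors were among the higher members and carry the element that type I interferon acts on. Ifit1, which binds viral RNA that lacks the host cap, stood at 27.4 FPKM in treated and 19.4 FPKM in untreated tumours. Sequences are from RefSeq on GRCm38.p6, the assembly that mm10 is made from, 5′ to 3′ on the gene's strand, and capitals mark matches to the interferon-stimulated response element on either strand, searched as GAAA, any 2 bases and GAAA. Isg15 lies on the minus strand (chr4:156200769-156201068), Oas3 on the minus strand (chr5:120777610-120777909) and Ifit1 on the plus strand (chr19:34640639-34640938).
Isg15: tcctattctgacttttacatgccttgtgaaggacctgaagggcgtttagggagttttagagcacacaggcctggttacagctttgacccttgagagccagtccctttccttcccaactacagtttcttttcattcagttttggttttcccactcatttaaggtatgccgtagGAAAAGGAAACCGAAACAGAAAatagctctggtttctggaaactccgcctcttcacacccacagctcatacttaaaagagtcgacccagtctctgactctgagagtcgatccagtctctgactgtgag
Oas3: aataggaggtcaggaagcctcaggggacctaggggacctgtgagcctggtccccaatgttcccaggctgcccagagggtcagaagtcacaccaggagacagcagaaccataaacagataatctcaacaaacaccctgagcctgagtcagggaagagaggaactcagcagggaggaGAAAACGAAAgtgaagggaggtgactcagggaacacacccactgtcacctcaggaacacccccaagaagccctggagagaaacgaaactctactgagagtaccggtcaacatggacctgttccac
Ifit1: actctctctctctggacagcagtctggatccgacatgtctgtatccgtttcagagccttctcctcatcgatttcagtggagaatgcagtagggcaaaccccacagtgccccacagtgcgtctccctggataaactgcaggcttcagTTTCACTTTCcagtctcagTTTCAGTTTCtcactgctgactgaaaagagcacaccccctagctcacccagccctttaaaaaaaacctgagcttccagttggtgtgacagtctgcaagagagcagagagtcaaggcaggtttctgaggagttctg
In Isg15, 3 matches overlap in 1 run that begins at position -78 from the start site. In Ifit1 the pair of matches is on the opposite strand, so they read as TTTC runs.

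This element was found in 946 of 27025 promoters of the RefSeq table, a share of 3.5%. Of the 41 effectors, 28 had a promoter entry, and 14 of these, 50%, held a match. The 14 with a match had a median log2 ratio of 0.36, and the 14 without one a median of 0.28. All 4 guanylate-binding protein genes with an entry held a match. Such a match describes letters in a window and is not evidence of a bound site. Each motif was counted by itself, also where its letters overlapped another motif.

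Sensors and regulators of the same pathway differed less. Of 18 that passed the minimum, 15 were above 0, with a median log2 ratio of 0.12 and 0 past 0.5. Irf7, the factor that amplifies type I interferon, was at 126 FPKM in treated and 91.4 FPKM in untreated tumours, a log2 ratio of 0.46. Stat2 was at 40.2 FPKM with anti-PD-1 and 32.0 FPKM without. The receptor chains Ifnar1 and Ifnar2 had log2 ratios of 0.04 and 0.02.

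Targets of interferon-γ did not move as a block. Guanylate-binding proteins are GTPases that attack vacuoles of pathogens; 9 of 10 were above 0, and their median log2 ratio was 0.19. Their largest ratio was that of Gbp5, at 37.9 FPKM in treated and 30.1 FPKM in untreated tumours. The immunity-related GTPases had a median of 0.10 with 6 of 7 above 0; the exception was Gvin1, whose model shares its locus with Gm4070. In the interferon-γ signalling list the median was 0.09 over 12 genes. Ido1, which breaks down tryptophan, was the member with the largest ratio, at 3.63 FPKM in treated and 1.84 FPKM in untreated tumours, a log2 ratio of 0.71. The 16 genes of class I presentation centred on -0.03 and 0 of them passed 0.5, with B2m, the light chain of class I, at 3794 FPKM in treated and 4175 FPKM in untreated tumours.

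**Figure D2:**
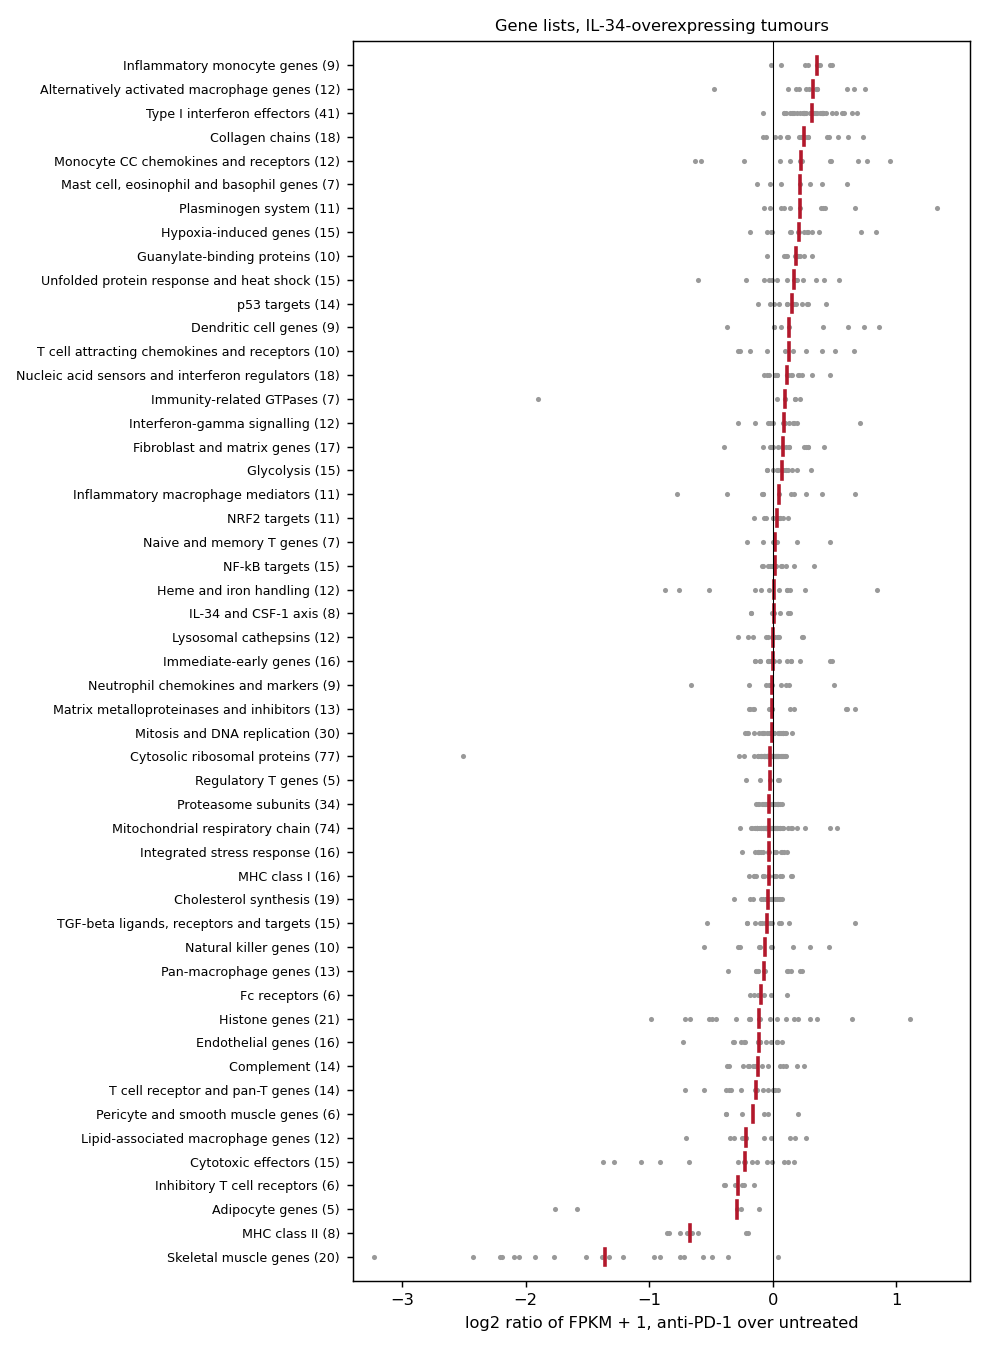
Each row is a gene list with at least 5 members that passed the minimum, with their number in parentheses, each grey point is a member's log2 ratio of FPKM + 1, anti-PD-1 over untreated, and the red bar is the list's median. Type I interferon effectors (0.31), inflammatory monocyte genes (0.35) and alternatively activated macrophage genes (0.32) are at the top, and MHC class II (-0.67) and skeletal muscle genes (-1.36) at the bottom.

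MHC class II genes, whose products present peptides to CD4 T cells, were lower in treated overexpressing tumours. All 8 that passed the minimum, of 10 matched, were below 0, with a median log2 ratio of -0.67, and 6 were lower by at least 0.5. H2-Eb1, a β chain, was at 98.7 FPKM in treated and 179 FPKM in untreated tumours, a log2 ratio of -0.86. H2-Aa, an α chain, was at 138 FPKM in treated and 248 FPKM in untreated tumours, a log2 ratio of -0.84. H2-Ab1, its partner chain, was at 183 FPKM in treated and 309.9 FPKM in untreated tumours, a log2 ratio of -0.75. The classical chains thus stood lowest. Among subunits of the peptide exchanger DM, H2-DMa was closer, at 86.6 FPKM with anti-PD-1 and 101 FPKM without, a log2 ratio of -0.22. H2-DMb1 was at 27.7 FPKM with anti-PD-1 and 44.2 FPKM without, a log2 ratio of -0.66. The log2 ratio of H2-DMb2 was -0.60. Ciita, the coactivator that switches on these genes, was at 3.61 FPKM in treated and 4.31 FPKM in untreated tumours, a log2 ratio of -0.20. In the class II block on chromosome 17 (mm10, 34135671 to 34344645), 7 chosen genes were described without a minimum, and all lay between -0.86 and -0.22. Other genes within these bounds were not counted. H2-Ob, a class II gene of chromosome 17 that did not reach the minimum, had a log2 ratio of 0.06. In the deficient line all 8 were above 0 with anti-PD-1, where 40.2% of all genes were, with a median of 1.27. The difference between the lines was not tested.

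Promoters of H2-Eb1 and H2-Aa are shown because these were the lowest class II genes. Capitals mark GATTGG on either strand, the Y box that NF-Y binds in class II promoters, from RefSeq on GRCm38.p6. H2-Eb1 is on the plus strand (chr17:34305617-34305916) and H2-Aa on the minus strand (chr17:34287774-34288073).
H2-Eb1: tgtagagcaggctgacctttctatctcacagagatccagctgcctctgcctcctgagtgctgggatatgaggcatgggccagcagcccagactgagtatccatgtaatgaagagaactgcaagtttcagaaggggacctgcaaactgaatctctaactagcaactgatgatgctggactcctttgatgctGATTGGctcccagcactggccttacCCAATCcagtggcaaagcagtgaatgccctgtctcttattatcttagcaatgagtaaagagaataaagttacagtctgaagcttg
H2-Aa: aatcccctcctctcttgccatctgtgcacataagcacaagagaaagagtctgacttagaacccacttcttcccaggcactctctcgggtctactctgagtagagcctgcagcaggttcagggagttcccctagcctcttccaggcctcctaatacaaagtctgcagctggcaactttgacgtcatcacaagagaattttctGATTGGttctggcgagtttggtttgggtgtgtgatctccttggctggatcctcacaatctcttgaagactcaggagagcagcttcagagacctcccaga
All 7 class II genes with a promoter entry held GATTGG, which 16.5% of all promoters hold. These promoters held 0 matches to the interferon-stimulated response element.

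Genes of T cells were level or lower with anti-PD-1. Of 14 pan-T cell genes and receptor chains that passed the minimum, 4 were above 0, the median log2 ratio was -0.13 and 2 were lower by at least 0.5. Cd28, 1 of the 14, passed through the untreated library alone and could only lie below 0. Cd3d, a chain of the receptor complex, was at 1.37 FPKM in treated and 2.88 FPKM in untreated tumours. Cd8b1, a chain of the CD8 coreceptor, was at 4.29 FPKM with anti-PD-1 and 5.73 FPKM without, while Cd4 was at 1.52 and 1.38 FPKM. All of these are low levels. Inhibitory receptors, listed with the transcription factor gene Tox, had a median of -0.28 with 0 of 6 above 0; Tox passed through the untreated library alone and could only lie below 0. On this list were Lag3 at 3.82 FPKM in treated and 5.31 FPKM in untreated tumours and Havcr2, which encodes TIM-3, at 6.93 and 9.44 FPKM. Pdcd1, the gene of PD-1 itself, was at 3.68 FPKM in treated and 4.92 FPKM in untreated tumours. Its ligand gene Cd274 was at 26.9 FPKM with anti-PD-1 and 21.0 FPKM without, and the log2 ratio of Pdcd1lg2 was -0.45. Regulatory T genes had a median of -0.02 over 5 genes and natural killer genes one of -0.06 over 10. Of 12 B and plasma cell genes, 1 reached the minimum, Cd22, through the untreated library alone.

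Among cytotoxic effectors the granzymes D to G of the chromosome 14 cluster had the lowest ratios. The median log2 ratio of the 15 effectors was -0.23, with 5 lower by at least 0.5 and 0 higher by that size. Of the 5, Gzmk passed the minimum through the untreated library alone and could only be lower. Gzmf was at 56.5 FPKM in treated and 148 FPKM in untreated tumours, a log2 ratio of -1.37. Gzmg was at 62.4 FPKM in treated and 154 FPKM in untreated tumours, and Gzmd at 64.3 and 136 FPKM. Reads of the similar granzymes C to G can be shared among them, so single values are uncertain. Their sum was 301 FPKM with anti-PD-1 and 596 FPKM without, a log2 ratio of -0.98. Gzmc lay closer to level, at 91.3 FPKM in treated and 107 FPKM in untreated tumours, a log2 ratio of -0.23. Granzymes D to G alone summed to 210 FPKM with anti-PD-1 and 489 FPKM without, a log2 ratio of -1.21. Gzmb, the main granzyme of cytotoxic T cells, lies in the same cluster and was at 99.1 FPKM in treated and 92.9 FPKM in untreated tumours, a log2 ratio of 0.09. Prf1, which encodes perforin, was at 28.4 FPKM with anti-PD-1 and 34.7 FPKM without. In the deficient line the sum of granzymes C to G was 39.6 FPKM with anti-PD-1 and 219.7 FPKM without.

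Chemokines that attract T cells differed among themselves. The median log2 ratio of these 10 genes was 0.13, with 6 above 0. Cxcl11, a ligand of CXCR3, was at 16.4 FPKM in treated and 11.3 FPKM in untreated tumours, a log2 ratio of 0.51. The more abundant Cxcl10 was at 107 FPKM in treated and 81.4 FPKM in untreated tumours, a log2 ratio of 0.40. Ccl3, a ligand of CCR1, was at 10.9 FPKM in treated and 6.54 FPKM in untreated tumours, a log2 ratio of 0.66. Ccl5, which also attracts T cells, was level, at 34.1 FPKM with anti-PD-1 and 35.4 FPKM without. Cxcl9, another ligand of CXCR3, was lower, at 87.5 FPKM in treated and 106 FPKM in untreated tumours, and Cxcl16 was at 33.6 and 40.7 FPKM.

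Chemokines that recruit monocytes were mostly higher in treated tumours. All 12 genes on this list passed, 9 were above 0 and the median log2 ratio was 0.23, with 3 higher and 2 lower by at least 0.5. Cx3cl1, below 0, passed through the untreated library alone. Ccl7 was at 92.9 FPKM in treated and 47.7 FPKM in untreated tumours, a log2 ratio of 0.95. Ccl2, which like Ccl7 binds CCR2, was at 137 FPKM in treated and 80.0 FPKM in untreated tumours, a log2 ratio of 0.77. Ccl6, whose model overlaps E230016K23Rik, was at 208 FPKM in treated and 129 FPKM in untreated tumours, a log2 ratio of 0.69. These 3 chemokine genes all lie on chromosome 11 and are abundant. Ccl8 went the other way, at 189 FPKM in treated and 292 FPKM in untreated tumours, a log2 ratio of -0.63. Cx3cr1, the fractalkine receptor of patrolling monocytes, was at 12.2 FPKM with anti-PD-1 and 18.7 FPKM without. The receptor Ccr2 itself was at 32.0 FPKM in treated and 27.0 FPKM in untreated tumours. In the chromosome 11 cluster from Ccl2 to Ccl1, which holds Ccl8 (mm10, 82035577 to 82179812), 5 of 6 chosen genes lay above 0, with no minimum applied. The neighbouring cluster from Ccl5 to Ccl4 (83525778 to 83664683) had 4 of 5 chosen genes above 0, again with no minimum.

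Macrophage genes differed in direction between lists. Inflammatory monocyte genes had a median log2 ratio of 0.35 with 8 of 9 above 0, among them F13a1, a coagulation factor chain, at 36.2 FPKM in treated and 25.6 FPKM in untreated tumours. Ly6c2, the surface marker of inflammatory monocytes, was at 37.1 FPKM with anti-PD-1 and 28.5 FPKM without. For genes of alternatively activated macrophages the median was 0.32, 11 of 12 were above 0, and 3 were higher by at least 0.5. Those 3 were Clec10a, at 5.72 FPKM in treated and 2.999 FPKM in untreated tumours, Mgl2, at 3.84 and 2.07 FPKM, and Lyve1, at 15.1 and 9.61 FPKM. The first pair are galactose-binding lectins and Lyve1 is a hyaluronan receptor. Arg1, arginase 1, was at 133 FPKM with anti-PD-1 and 104 FPKM without, and Mrc1, the mannose receptor, at 58.4 and 45.4 FPKM. Inflammatory macrophage mediators had ratios in both directions, with a median of 0.05 and 6 of 11 above 0; Il1a, below 0, passed through the untreated library alone. Of these, Saa3, an acute phase protein, was at 12.9 FPKM with anti-PD-1 and 7.74 FPKM without, and Cxcl13, which attracts B cells, at 1.43 and 3.17 FPKM. General macrophage genes were level, with a median of -0.07 over 13 genes and 0 past 0.5 in either direction. The CSF-1 receptor gene, Csf1r, stood at 70.4 FPKM with anti-PD-1 and 79.7 FPKM without.

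Genes of lipid-laden macrophages lay on the lower side. Their median log2 ratio was -0.21 over 12 genes, with 3 above 0. Apoe, a lipid carrier, was at 587 FPKM in treated and 956 FPKM in untreated tumours, a log2 ratio of -0.70. Spp1, osteopontin, was at 1530.2 FPKM with anti-PD-1 and 1816 FPKM without. Complement genes had a median of -0.12, and 5 of 14 were above 0, and C1qa was at 599 FPKM in treated and 707 FPKM in untreated tumours. Fc receptors had a median of -0.10 over 6 genes.

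Further myeloid genes were among the higher ones of the whole pair. Fcrls, an Fc receptor-like gene of macrophages, was at 6.55 FPKM in treated and 2.65 FPKM in untreated tumours, a log2 ratio of 1.05. Ifitm6, of the interferon-induced transmembrane family, was at 7.37 FPKM in treated and 3.01 FPKM in untreated tumours, a log2 ratio of 1.06. Slfn4, a schlafen gene of myeloid cells, was at 8.88 FPKM in treated and 3.99 FPKM in untreated tumours, a log2 ratio of 0.99. In the deficient line Fcrls and Ifitm6 had log2 ratios of -0.35 and -0.30. Dendritic cell genes had a median of 0.13 over 9 genes with 3 higher by at least 0.5. Of these 3, Ccl22 was at 4.62 FPKM with anti-PD-1 and 2.11 FPKM without, and Ccl17, which like Ccl22 attracts cells with CCR4, was at 1.86 and 0.876 FPKM. Cd209a was at 1.04 FPKM in treated and 0.222 FPKM in untreated tumours. Ccl17 and Cd209a passed the minimum through the treated library alone. Mast cell genes had a median of 0.22 over 7 genes, with the protease gene Cpa3 at 23.5 FPKM in treated and 15.2 FPKM in untreated tumours.

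**Figure D3:**
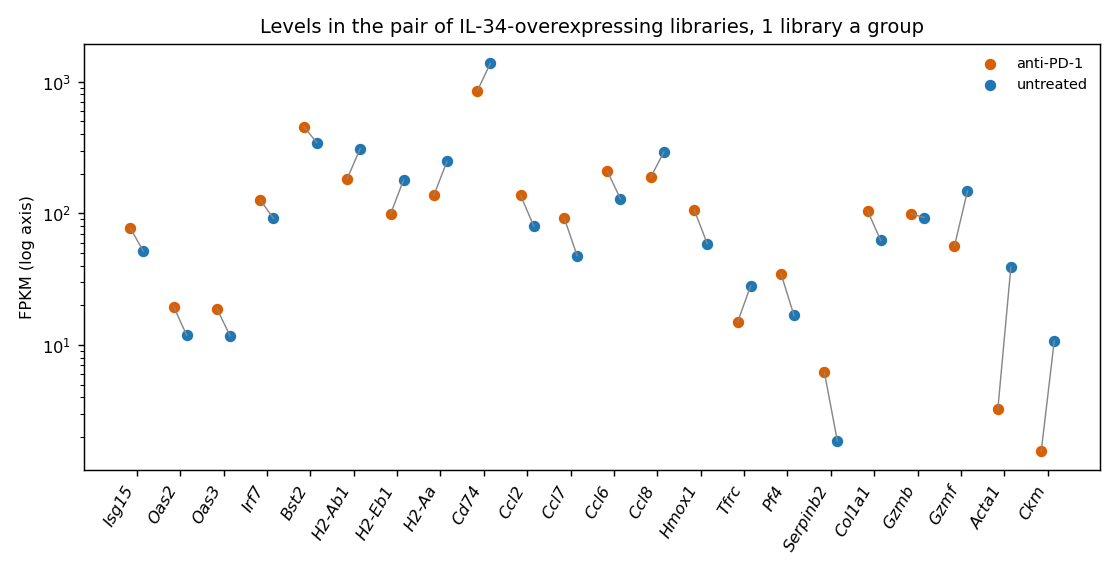
FPKM on a log axis for 22 genes named in the text, with the anti-PD-1 library left and the untreated library right for each gene; each point is 1 library, so there is no error bar. The interferon effectors Isg15, Oas2 and Oas3 are higher with anti-PD-1, the class II genes H2-Ab1, H2-Eb1, H2-Aa and Cd74 lower, and Acta1 shows the widest gap, at 3.27 against 39.0 FPKM.

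Heme and iron genes included large ratios in both directions. Hmox1, heme oxygenase 1 (chromosome 8, 75093618 to 75100593), was at 106 FPKM in treated and 58.8 FPKM in untreated tumours, a log2 ratio of 0.84. Tfrc, the transferrin receptor (chromosome 16, 32608896 to 32632794), was at 14.9 FPKM in treated and 28.1 FPKM in untreated tumours, a log2 ratio of -0.87. Cp, ceruloplasmin, which oxidises iron for export, was at 7.99 FPKM with anti-PD-1 and 14.2 FPKM without. The list as a whole was level, with a median of 0.01 over 12 genes. Globin genes were higher in the treated library, and the 3 adult β-globin rows summed to 81.3 FPKM in treated and 51.4 FPKM in untreated tumours. Of 7 erythroid genes 3 passed, and their list summed to 109.7 FPKM with anti-PD-1 and 76.9 FPKM without. The part of blood in the values of this list was not tested. Other NRF2 targets were level, with a median of 0.03 over 11 genes and 0 past 0.5.

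Pf4, a chemokine of platelet granules that macrophages also express, was at 34.8 FPKM in treated and 16.8 FPKM in untreated tumours, a log2 ratio of 1.01. Of 12 platelet genes on the list, only Pf4 and Itgb3 reached the minimum, and Tubb1 and Gp6 were at 0 in both libraries. The list summed to 40.4 FPKM in treated and 22.0 FPKM in untreated tumours. Itgb3 was at 3.20 FPKM with anti-PD-1 and 3.62 FPKM without, and Ppbp, a platelet chemokine gene below the minimum, at 0.781 and 0.230 FPKM. The part of platelets in the level of Pf4 was not tested. In the deficient line Pf4 was at 10.5 FPKM with anti-PD-1 and 15.5 FPKM without.

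Genes of the plasminogen system were mostly higher in treated tumours. Serpinb2, the plasminogen activator inhibitor of monocytes (chromosome 1, 107511423 to 107525600), was at 6.21 FPKM in treated and 1.87 FPKM in untreated tumours, a log2 ratio of 1.33. The activators Plau and Plat were higher by less, with log2 ratios of 0.39 and 0.42. The list had a median of 0.22 with 9 of 11 above 0, and 1 of the 11 passed through the treated library alone.

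Expressed collagen genes were mostly higher in treated tumours by a small amount. Of 43 matched, 18 passed the minimum, 16 of these were above 0 and the median log2 ratio was 0.25. With no minimum the median of the collagen genes was 0.061 with the 6 at 0 in both libraries left out, and 0.012 over all 43. The 3 higher by at least 0.5 were Col1a1, Col5a1 and Col6a2. Col1a1, the main chain of fibrillar collagen I, was at 104 FPKM in treated and 62.2 FPKM in untreated tumours, a log2 ratio of 0.73. Col5a1, which nucleates fibrils, was at 18.3 FPKM in treated and 11.7 FPKM in untreated tumours, a log2 ratio of 0.61. Among basement membrane chains, Col4a1 was at 72.5 FPKM with anti-PD-1 and 69.5 FPKM without, and Col18a1 at 32.5 and 26.4 FPKM. Other fibroblast and matrix genes had a median of 0.08 over 17 genes, and Dcn, decorin, was at 93.4 FPKM in treated and 123 FPKM in untreated tumours. The 13 metalloproteinase and inhibitor genes had a median of -0.0042, with 8 below 0. Mmp3, Mmp12 and Mmp23 were higher by at least 0.5, but Mmp3 and Mmp23 passed the minimum through the treated library alone and could only lie above 0. Mmp12, macrophage elastase, was at 6.83 FPKM in treated and 3.93 FPKM in untreated tumours. TGF-β ligands, receptors and targets had a median of -0.05 over 15 genes, and Ctgf, a target, was at 11.01 FPKM with anti-PD-1 and 16.3 FPKM without.

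Genes induced by low oxygen were slightly higher. Of 15, 11 were above 0 with a median log2 ratio of 0.21. Car9, a carbonic anhydrase of hypoxic tumour cells, was at 25.7 FPKM in treated and 15.3 FPKM in untreated tumours, a log2 ratio of 0.71. P4ha2, a prolyl hydroxylase that collagen needs, was at 18.3 FPKM in treated and 9.81 FPKM in untreated tumours, a log2 ratio of 0.83. Bnip3 and Ndrg1 had log2 ratios of 0.20 and 0.28. Glycolysis genes had a median of 0.08, and 12 of 15 were above 0. In the deficient line 0 of the 15 hypoxia genes and 0 of the 15 glycolysis genes were above 0, with medians of -0.86 and -0.47. Of all genes, 40.2% were above 0 in the deficient line and 49.1% in the overexpressing line. The difference between the lines was not tested. Targets of p53 had a median of 0.16 with 12 of 14 above 0, with Cdkn1a, a cell cycle inhibitor, at 67.2 FPKM in treated and 55.2 FPKM in untreated tumours.

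Endothelial genes lay slightly below 0, with a median log2 ratio of -0.11 and 4 of 16 above 0. Cldn5, a tight junction protein of endothelium, was at 2.06 FPKM in treated and 4.05 FPKM in untreated tumours, and Pecam1 at 16.99 and 20.1 FPKM. Pericyte and smooth muscle genes had a median of -0.16 over 6 genes.

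Housekeeping programmes were level between treated and untreated tumours. Medians of the log2 ratio were -0.02 over 77 genes of cytosolic ribosomal proteins, -0.03 over 74 of the respiratory chain, -0.03 over 34 of the proteasome, -0.01 over 30 of mitosis and DNA replication and -0.04 over 19 of cholesterol synthesis. Mki67, a marker of dividing cells, was at 30.8 FPKM with anti-PD-1 and 28.8 FPKM without. The integrated stress response had a median of -0.03 over 16 genes, immediate-early genes one of -0.00032 over 16 and NF-kB targets one of 0.02 over 15. Unfolded protein and heat shock genes had a median of 0.17 over 15, with Hspa1a, an inducible chaperone, at 4.96 FPKM in treated and 3.12 FPKM in untreated tumours. Hspb1, a small heat shock protein gene, went the other way, at 1.76 FPKM in treated and 3.22 FPKM in untreated tumours.

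Skeletal muscle genes made up many of the largest differences of the pair. Acta1, skeletal α-actin (chromosome 8, 123891767 to 123894736), was at 3.27 FPKM in treated and 39.0 FPKM in untreated tumours, a log2 ratio of -3.23 and 11.9-fold lower by plain FPKM. Myl1, a fast myosin light chain, was at 1.14 FPKM in treated and 10.5 FPKM in untreated tumours, a log2 ratio of -2.43. Ckm, muscle creatine kinase, was at 1.56 FPKM in treated and 10.7 FPKM in untreated tumours, a log2 ratio of -2.19. These are genes of the contractile apparatus and its energy supply. Of 30 matched, 20 passed the minimum, of which 10 did so through the untreated library alone and so had to lie below 0. Of the 20, 17 were lower by at least 0.5 and 12 by at least 1, and the median was -1.36, or -0.86 with no minimum. Eno3, the muscle enolase, was the only one above 0, at 43.1 FPKM in treated and 41.7 FPKM in untreated tumours. The list summed to 78.7 FPKM with anti-PD-1 and 199 FPKM without in the overexpressing line, and to 649 and 245 FPKM in the deficient line. The source of these transcripts, and the part of muscle tissue in any other difference of the pair, was not tested. Of 12 adipocyte genes, 5 passed, with 0 above 0. Cfd and Car3, the only 2 of these past 0.5, passed through the untreated library alone and had to lie below 0. Cfd, the complement factor adipsin, whose model overlaps Bc1, was at 0.118 FPKM in treated and 2.35 FPKM in untreated tumours, while Adipoq was under 1 FPKM in both. The adipocyte list summed to 203 FPKM with anti-PD-1 and 252 FPKM without.

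The promoter of Acta1 (chr8:123894726-123895025, minus strand, RefSeq on GRCm38.p6) is shown as that of the gene with the lowest ratio, with a CArG box, the element of serum response factor, in capitals.
Acta1: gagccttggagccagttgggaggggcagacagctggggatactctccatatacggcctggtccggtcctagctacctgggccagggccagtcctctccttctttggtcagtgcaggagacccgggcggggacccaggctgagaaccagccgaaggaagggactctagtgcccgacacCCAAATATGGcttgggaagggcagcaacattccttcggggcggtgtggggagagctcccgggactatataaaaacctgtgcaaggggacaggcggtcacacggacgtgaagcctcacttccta
This motif was searched on both strands and added after the values and the promoter sequences were seen, so its presence in Acta1 is not an independent finding. It was found in 2 of 22 muscle genes with an entry, Acta1 and Myh4, and in 1.56% of all promoters. The MEF2 site, searched on both strands as CTA, any 4 bases and TAG, was found in 2 of the 22 and in 3.69% of all promoters.

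**Figure D4:**
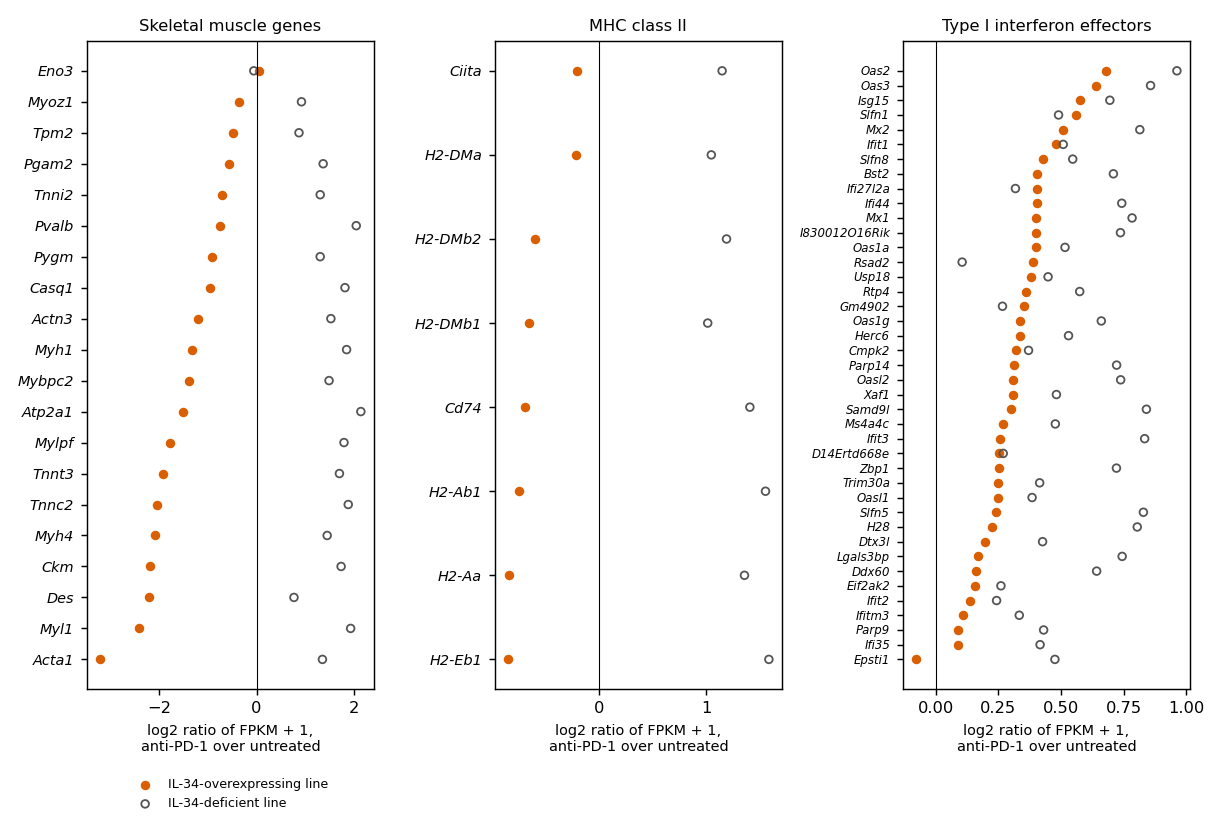
Log2 ratios of FPKM + 1, anti-PD-1 over untreated, for the members of 3 lists with at least 1 FPKM in the overexpressing pair, filled points for the IL-34-overexpressing line and open points for the IL-34-deficient line. Muscle and class II genes lie on opposite sides of 0 in the pair of lines, with Eno3 close to 0 in both, and the type I interferon effectors lie above 0 in both, apart from Epsti1 in the overexpressing line; the difference was not tested.

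Some of the largest ratios belong to models whose reads cannot be assigned with certainty. Gm4070 was at 10.97 FPKM in treated and 1.75 FPKM in untreated tumours, a log2 ratio of 2.12, while Gvin1, whose model covers the same stretch of chromosome 7, was at 1.95 and 10.03 FPKM. The 4 rows of Gvin1 and Gm4070, at a pair of near-identical loci, summed to 24.5 FPKM with anti-PD-1 and 22.3 FPKM without. Oaz1-ps, inside the Oaz1 locus, was at 0.462 FPKM in treated and 7.76 FPKM in untreated tumours, and with Oaz1 it summed to 342 and 335 FPKM. The sums of these families were therefore nearly level. The Rps27 model, which overlaps Gm9846, was at 8.58 FPKM in treated and 53.6 FPKM in untreated tumours, while the other ribosomal protein genes stayed near 0.

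In the overexpressing line, 6 genes were higher (0.0524%) and 32 lower (0.279%) with anti-PD-1 by a log2 ratio of 1 or more. Few could therefore be shared with the deficient line. In the deficient line, 174 genes were higher with anti-PD-1 (1.49%) and 40 lower (0.341%), each by a log2 ratio of 1 or more. Of the 6 higher genes, 0 were also higher by that size in the deficient line, where 1.49% of all genes were. Of the 32 lower genes, 3 were lower in each line, namely Gzmd, Gzmf and Gzmg, beside 0.341% of all genes in the deficient line. Reads of these similar granzymes can be shared among them. A further 15 genes were lower in the overexpressing line and higher in the deficient line, and 1, Serpinb2, the reverse. Some of the 15, such as Myh4 and Oaz1-ps, passed the minimum through the untreated overexpressing library alone and could only be lower there. Type I interferon effectors had medians of 0.31 in the overexpressing and 0.53 in the deficient line. With 1 library a group, a difference between the responses of the lines cannot be set against any error and was not tested.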

How the data were processed

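RNA-seq was done on total RNA of CT26 tumours, 1 library for each of 4 groups. The authors deposited 1 table of FPKM values, made with CASAVA 1.8.2, TopHat2 2.1.0 and Cufflinks 2.2.1 on mm10, per the submitters' processing notes; the sources used here do not state the strand setting of the counting. FPKM keeps no fragment counts, so no counting interval was computed. Relative depth was read from rows below 0.1 FPKM as the most frequent ratio between libraries, with a tolerance of 0.002, which 301 of 1262 rows met. Starts in the table are mostly counted from 0; they are given from 1.

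For each symbol the row with the highest mean was kept and 816 short RNA rows were left out. The log2 ratio of FPKM + 1, treated over untreated, was taken for genes with at least 1 FPKM in either library. It understates differences of low genes. It was tested on simulated data with known ratios in well-expressed genes only, so the test does not cover ratios of low genes. Each of 61 gene lists, with 1053 distinct genes of which 824 passed, was described by counts and its median; 4 further symbols were not matched. Named were genes past a log2 of 1, the 12 highest and 12 lowest with at least 5 FPKM, and the first 3 and up to 6 most different members of each list; a few other members are named as examples, chosen after their values were seen. The genes, lists and rules were chosen with earlier results of these data known. Promoters came from the RefSeq table for GRCm38.p6. Alternatives were other pseudocounts and minimums, TPM, centring, summed rows, plain ratios and leaving out the genes on the muscle, adipocyte and epidermis lists. Python 3.11.15, numpy 2.4.6, pandas 2.3.3 and matplotlib 3.10.9 were used. A few results are not reported here.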

Additional observations from a re-analysis of the deposited data

Results flagged for a closer look

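Several genes lay past a log2 ratio of 1 on opposite sides of 0 in the pair of lines when anti-PD-1 was set against no treatment; with 1 library a group this difference was not tested. Ratios given are for the overexpressing line. Myh4, Atp2a1, Mybpc2, Myh1, Actn3, Car3, H19 and Oaz1-ps passed the minimum through the untreated overexpressing library alone. These could only be lower in the overexpressing line. The muscle genes among them were Acta1 (-3.23), Myl1 (-2.43), Ckm (-2.19), Myh4 (-2.09), Tnnc2 (-2.05), Tnnt3 (-1.93), Mylpf (-1.77), Atp2a1 (-1.51), Mybpc2 (-1.39), Myh1 (-1.32) and Actn3 (-1.21), all higher in the deficient line. The models of Tnnt3 and Atp2a1 overlap Gm14492 and Rabep2. Car3, a carbonic anhydrase of muscle and fat (-1.76), and H19, an imprinted RNA (-1.62), went the same way. The overlapping models Oaz1-ps (-2.58) and Gvin1 (-1.90) did too, and their single values are uncertain. Serpinb2 was the reverse, with 1.33 in the overexpressing line and -1.42 in the deficient line.

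As lists, MHC class II had a median of -0.67 in the overexpressing line and 1.27 in the deficient line, and skeletal muscle genes -1.36 and 1.51. Of the 20 muscle genes that passed, 10 did so through the untreated overexpressing library alone and had to lie below 0 in that line. The difference was not tested for either list.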

How the results depend on the processing

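No paired analysis was possible because each group has 1 library and the labels give no replicate numbers shared between groups. Counts depended on the pseudocount: with 0.1, 32 genes were higher and 56 lower by a log2 of 1, and 164 and 206 by 0.5; with 5, they were 1 and 13, and 21 and 38. A minimum of 5 FPKM left 15 lower by 1, and 45 higher and 55 lower by 0.5. Values rescaled to TPM gave 14 and 51, and 171 and 181. Plain ratios with at least 1 FPKM in both libraries gave 11 and 21. Without the genes on the muscle, adipocyte and epidermis lists, 18 were lower by 1, and these still held muscle genes that are not listed, such as Actn2. The skeletal muscle median was -2.46 with a pseudocount of 0.1, -0.49 with 5, -0.86 with no minimum, -2.05 with a minimum of 5 and -1.66 with TPM. The collagen median was 0.061 with no minimum and genes at 0 in both libraries left out. That of monocyte chemokines was 0.46 with a minimum of 5. Of 33 list medians of at least 0.1 in size, with 229 values under the alternatives, 5 values changed sign, in the lists of B cells, histones and the PD-1 axis. MHC class II and type I interferon medians moved by less than 0.1. Of 398 named genes that passed the minimum, 132 moved by over 0.1 with a pseudocount of 5, 80 with 0.1 and 52 with TPM. Low genes limit the precision, and no counting error could be given.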
